A study of Mus musculus with 3 samples.

Results

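The H3K4me1 map of cytokine treated islets was examined at 9 genes that mark leukocytes, in order to ask whether immune cells resident in islets leave a trace in it. These were Ptprc, which marks all leukocytes, the myeloid genes Spi1, Csf1r, Cd68, Emr1 and Itgam, and the lymphoid genes Cd3e, Cd4 and Cd79a. They are 9 of 22350 protein-coding genes of GENCODE M1 on chromosomes 1 to 19 and X, where Spi1 carries its older symbol Sfpi1. An H3K4me1 enriched region was counted for a gene when it overlapped the gene or lay within 20 kb of any of its transcriptional start sites (TSS). By this rule 17 of the 65709 enriched regions lay at the leukocyte markers. The islets came from CD1 mice aged 8 to 12 weeks, per the labels, and were cultured in RPMI for 4 days with TNFα (0.16 ng/ml), Il-1β (0.25 ng/ml) and IFNγ (1.6 ng/ml). The methods name ICR mice and give a narrower range of ages. Islets of several mice were used, and the DNA of several ChIP experiments was pooled into 1 library, so that no value below has a replicate. The other 2 of the 3 samples of the series are RNA-seq of untreated and of cytokine treated islets. They, and any H3K4me1 map of untreated islets, were not analysed here, so no change with treatment is described. The list gives positions on a grid of 200 bp, with no read count, so the depth behind a region is unknown.

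Islets hold resident macrophages and few lymphocytes beside the endocrine cells. H3K4me1 marks enhancers and the flanks of active promoters, and in bulk tissue a locus used in a small share of the cells can stay under the calling threshold. Fewer leukocytes and less of the mark per leukocyte therefore cannot be told apart in this map. Ptprc encodes CD45, a tyrosine phosphatase on the surface of all leukocytes. Spi1 encodes PU.1, the transcription factor required for myeloid and B cell development, and Csf1r encodes the receptor for CSF-1 on which macrophages depend. Cd68 encodes a lysosomal glycoprotein of macrophages, Emr1 the F4/80 antigen of mouse macrophages, and Itgam the CD11b integrin chain of macrophages and neutrophils. Cd3e encodes a chain of the CD3 complex of T cells, Cd4 the coreceptor of helper T cells, and Cd79a a signaling chain of the B cell receptor.

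Reference sequence is shown for the regions closest to the TSS of Ptprc and Spi1, 2 regions whose closest gene was the marker itself, and for the promoter of Cd68, the marker whose start was covered by a region. Each sequence runs 5′ to 3′ on the strand of its gene and was read from mm9. They are the central 300 bases of the Ptprc region at chr1:140041051-140041350 on the minus strand, those of the Spi1 region at chr2:90918551-90918850 on the plus strand, and the promoter of Cd68 at chr11:69479606-69479905 on the minus strand, from 250 bases before to 50 after the first TSS. Capitals mark each match, on either strand, to the PU.1 word GAGGAAGT, to the word TTCNNNGAA of gamma-activated sites (GAS), and to GAAANNGAA, a word of interferon-stimulated response elements (ISRE).
Ptprc region: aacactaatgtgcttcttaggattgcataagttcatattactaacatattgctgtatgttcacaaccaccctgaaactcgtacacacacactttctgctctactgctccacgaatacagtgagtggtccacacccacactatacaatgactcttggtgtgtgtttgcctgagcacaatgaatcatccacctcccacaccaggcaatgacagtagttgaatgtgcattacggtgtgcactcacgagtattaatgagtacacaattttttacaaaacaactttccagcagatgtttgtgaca
Spi1 region: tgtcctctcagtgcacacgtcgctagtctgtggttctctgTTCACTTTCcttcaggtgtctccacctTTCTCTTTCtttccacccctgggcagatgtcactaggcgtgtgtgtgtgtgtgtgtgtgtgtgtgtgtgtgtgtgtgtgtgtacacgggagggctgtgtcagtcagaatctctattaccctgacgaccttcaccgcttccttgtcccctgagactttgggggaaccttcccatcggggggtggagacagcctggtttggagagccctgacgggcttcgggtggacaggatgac
Cd68 promoter: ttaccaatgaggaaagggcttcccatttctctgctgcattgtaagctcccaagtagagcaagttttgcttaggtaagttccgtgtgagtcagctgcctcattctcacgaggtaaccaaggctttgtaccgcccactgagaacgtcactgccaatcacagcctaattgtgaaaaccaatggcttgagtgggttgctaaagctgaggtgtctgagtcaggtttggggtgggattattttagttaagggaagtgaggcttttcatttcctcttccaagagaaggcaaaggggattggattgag

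The central Spi1 sequence held 2 matches to the ISRE word on its reverse strand, and no match lay in that of Ptprc. Among 65647 central sequences of enriched regions of the same length, 2.05% held the PU.1 word, 9.52% the GAS word and 10.5% the ISRE word. The Cd68 promoter held no match. The shares among 22345 promoters of protein-coding genes of that length were 3.12%, 7.94% and 8.93%, and nothing is drawn for the markers from this 1 promoter. Over their whole length, 3 of the 17 regions at the leukocyte markers held the PU.1 word, all of them at Cd68. This was 17.6%, against a mean of 14.7% over all regions of the same widths. The GAS word was in 4 regions (23.5%, against 48.6%) and the ISRE word in 8 (47.1%, against 51.0%). These matches are descriptions of the reference and no binding was measured.

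At least 1 region was present at 6 of the 9 leukocyte markers, whereas 76.4% of all protein-coding genes had one by the same rule. The median was 2 regions per gene, in the leukocyte markers as in all protein-coding genes, with a range of 0 to 4 in the markers. Most of these 17 regions lay closest to another gene. The closest protein-coding TSS was that of another gene for 12 of the 17, and 9 of these 12 covered a TSS of that other gene. The same shares of regions over all protein-coding genes are not given here, so these counts are not read as a trait of the markers. In the plot of regions at each gene, Cd68, Cd4 and Cd79a have only regions whose closest TSS is that of another gene, and Emr1, Itgam and Cd3e have none. The marker itself was the closest protein-coding gene of 5 regions, of which 3 were at Ptprc, 1 at Spi1 and 1 at Csf1r. Thus 3 of the 9 were the closest gene of a region, against 69.5% of all protein-coding genes. Regions outside the window count here too. The share was higher in other leukocyte genes, at 10 of 14 myeloid (71.4%) and 8 of 15 lymphoid genes (53.3%), and these differences were not tested. When regions over a TSS of another protein-coding gene were left out, a choice made after the values were seen, 4 of the 9 (Ptprc, Spi1, Csf1r and Cd4) had a region, against 73.4% of all protein-coding genes.

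**Figure D1:**
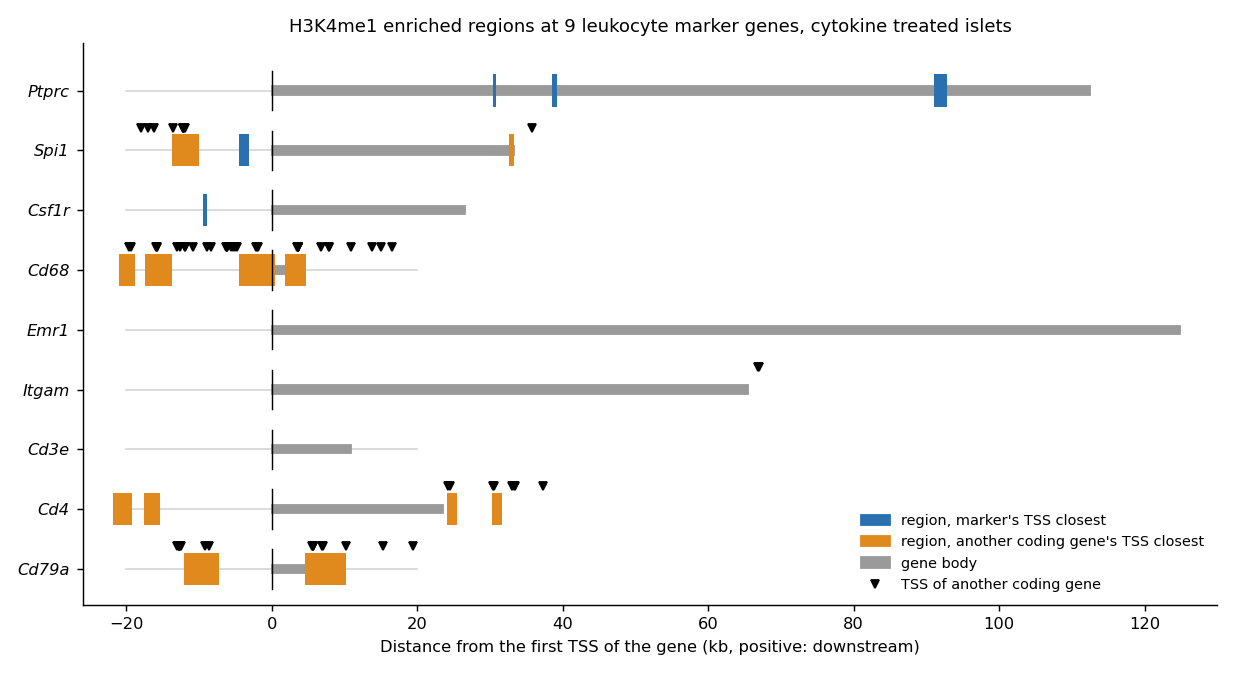
H3K4me1 enriched regions at each of the 9 leukocyte markers, by distance in kb from the first TSS (black line). The gene is a grey bar, with a thin line over it and 20 kb either side of the first TSS. Triangles mark TSS of nearby protein-coding genes, but not that of Lag3 upstream of Cd4. Regions whose closest protein-coding TSS is the marker's own (blue) are 5 of 17, at Ptprc, Spi1 and Csf1r, and the other 12 (orange) have the TSS of another gene closer.

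A region covered a TSS of 1 of the 9 leukocyte markers, Cd68, and this was also the 1 marker with a region within 2 kb of a TSS. Of all protein-coding genes 39.1% had a covered TSS and 62.0% a region within 2 kb. The distance from the first TSS to the nearest region was 0 at Cd68, 3.15 kb at Spi1, 4.60 kb at Cd79a, 8.83 kb at Csf1r and 15.4 kb at Cd4. It was 30.5 kb at Ptprc, 30.7 kb at Cd3e, 69.4 kb at Itgam and 81.7 kb at Emr1. The median of the 9 was 15.4 kb, against 0.951 kb over all protein-coding genes. As a description of the reference, words of 32 bases, a length chosen here, were taken every 100 bases within 2 kb of the first TSS and looked up in the whole reference. Of the 41 words per gene, 33 (Cd68 and Emr1) to 41 (Csf1r and Cd4) occurred once in the reference. The part of read placement in the distances above was not tested.

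Ptprc (ENSMUSG00000026395.8) occupies the minus strand of chr1:139959438-140071882 in mm9, a span of 112 kb. It had 3 regions, all inside the gene and none near its start. A region of 400 bp from 140041001 to 140041400, and another of 800 bp from 140032601 to 140033400, lay in intron 2 of the longest coding transcript, 30.5 and 38.5 kb downstream of the first TSS. The third, of 1.80 kb from 139979001 to 139980800, overlapped exons 21 to 23 of 33. No other protein-coding gene had a TSS within 20 kb of that of Ptprc, and these regions were not closer to any other protein-coding gene. They covered 2.67% of the gene, and 2.27% of its window. Upstream of its start the list held nothing for 331 kb, and the stretch without regions around the TSS ran over 361 kb. The median of this stretch was 12.6 kb over protein-coding genes, and the Ptprc stretch was at the 84.5 percentile.

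Spi1 (ENSMUSG00000002111.8) occupies the plus strand of chr2:90922547-90955913 and has 4 annotated start positions. It was the marker with the nearest region of its own. This region of 1.40 kb, from 90918001 to 90919400, ended 3147 bp upstream of the first TSS and overlapped no annotated gene, and its central sequence is the one printed for Spi1. Another region, of 3.80 kb from 90908801 to 90912600, reached to 9.95 kb upstream of Spi1 but covered a TSS of the zinc transporter gene Slc39a13, from which its midpoint was 126 bp away. The third, of 600 bp from 90955201 to 90955800, overlapped the 3′ end of Spi1, both its coding sequence and its UTR. Its midpoint was 2801 bp from a TSS of Mybpc3, which encodes a cardiac myosin binding protein. The 35.8 kb between this last region and that upstream of Spi1, which contain all 4 start positions, held no region. Regions covered 10.7% of the window of Spi1 and 1.80% of the gene.

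Csf1r (ENSMUSG00000024621.8) occupies the plus strand of chr18:61265226-61291803. No region overlapped the gene, whose introns hold an enhancer used in macrophages. The 1 region counted, of 600 bp from 61255801 to 61256400, ended 8826 bp upstream of the first TSS and outside annotated genes. Beyond the window, Csf1r was also the closest protein-coding gene of a region of 800 bp, which began 2398 bp past the end of the gene, and of one of 400 bp from 61298201 to 61298600. All 3 were narrower than the median region of 1200 bp. The window of Csf1r was covered at 1.29%.

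Cd68 (ENSMUSG00000018774.7) occupies the minus strand of chr11:69477715-69479655 and is the shortest of the markers, at 1.94 kb. It had 4 regions and the highest covered share of the 9, 31.6% of its window, at the 92.3 percentile of all protein-coding genes. All 4 covered a TSS of another gene. The region over the TSS of Cd68, of 5000 bp from 69479201 to 69484200, extended 454 bp into Cd68 and on upstream to 4.54 kb, and its midpoint was 39 bp from a TSS of Eif4a1, which encodes a translation initiation factor used in all cells. At the other end of Cd68 a region of 2.80 kb, from 69475001 to 69477800, overlapped its UTR and covered a TSS of Mpdu1. The remaining 2 regions, 13.7 and 18.7 kb upstream, covered a TSS of Senp3 and of Tnfsf13. Cd68 had 6 other protein-coding genes with a TSS within 20 kb, the most of the 9, and a TSS was covered at 4 of these 6.

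Emr1 (ENSMUSG00000004730.7, chr17:57498109-57622952, plus strand) had no region in a gene of 125 kb. The nearest one lay 81.7 kb upstream, and its midpoint was 3.22 kb from a TSS of Vav1, a signaling gene of blood cells. Downstream of its first TSS there was none for 651 kb, and the stretch without regions ran over 733 kb, the longest of the 9 and at the 88.6 percentile. Itgam (ENSMUSG00000030786.11, chr7:135206154-135271674, plus strand) also had none. Its stretch without regions was 215 kb long and held the start sites of the related integrin genes Itgax and Itgad, which are used in leukocytes as well, and of Pycard, Trim72 and Cox6a2. Regions closest to Pycard and to Cox6a2 bounded it. A stretch of over 200 kb was found for Ptprc, Emr1 and Itgam, 33.3% of the markers, and for 19.6% of the 22129 protein-coding genes with a region on either side.

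Of the lymphoid markers none had a region at its own start. Cd3e (ENSMUSG00000032093.6, chr9:44806826-44817673, minus strand) had no region, and the 73.2 kb without regions around it also held the start sites of Cd3d and Cd3g, the genes of its partner chains. The stretch ended on one side at a region over a TSS of Ube4a. On the other it ended at a region of 2800 bp over a TSS of Mpzl2, which lay 708 bp from the midpoint of that region. Cd4 (ENSMUSG00000023274.7, chr6:124814710-124838239, minus strand) had 4 regions in its window and none in the gene. The 2 past its 3′ end covered a TSS of Gpr162 and of Leprel2. The other 2, of 2200 bp from 124853601 to 124855800 and of 2.60 kb from 124857401 to 124860000, overlapped coding sequence of Lag3, an inhibitory receptor of T cells that resembles Cd4, and covered no TSS. Their midpoints were 5369 and 1369 bp from a TSS of Lag3, and 16.5 and 20.5 kb from the first TSS of Cd4. Cd79a (ENSMUSG00000003379.7, chr7:25682400-25687216, plus strand) lay between a region of 4.80 kb over a TSS of the ribosomal protein gene Rps19 and one of 5.60 kb over a TSS of Arhgef1. The latter, from 25687001 to 25692600, overlapped the last of the 5 exons of Cd79a at its UTR. These regions covered 26.0% of the window of Cd79a, at the 88.0 percentile.

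Cd68, Cd79a, Spi1 and Cd4, the markers with the 4 highest covered shares (10.1% to 31.6%), each had 1 to 6 other protein-coding genes with a TSS within 20 kb, whereas Ptprc, Csf1r, Emr1 and Cd3e (0% to 2.27%) had none and Itgam (0%) had 1, Itgax. Of these 12 neighbours, 9 had a covered TSS and 10 a region within 2 kb, while of the 9 markers 1 did. Over all protein-coding genes 39.1% had a covered TSS and 62.0% a region within 2 kb, and the differences were not tested. Over all protein-coding genes the median covered share was 3.41% with no other TSS within 20 kb, 8.13% with 1 or 2 such neighbours and 18.1% with 3 or more. A region was present at 69.9% of the 9955 genes with no other TSS within 20 kb, at 79.4% of the 9888 genes with 1 or 2 such neighbours, and at 90.0% of the 2507 genes with 3 or more. The members with no such neighbour had a region in 2 of 4 cases, and those with 1 or 2 in 3 of 4. The 5 regions closest to a marker were 400 to 1800 bp wide with a median of 800 bp, whereas the 9 that covered a TSS of another gene were 1400 to 5600 bp wide with a median of 3600 bp. The other 3 were 600, 2200 and 2600 bp wide, and the median of all regions was 1200 bp. A wider region covers a TSS more easily, so this contrast is in part built in and is not read as a trait of the markers.

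**Figure D2:**
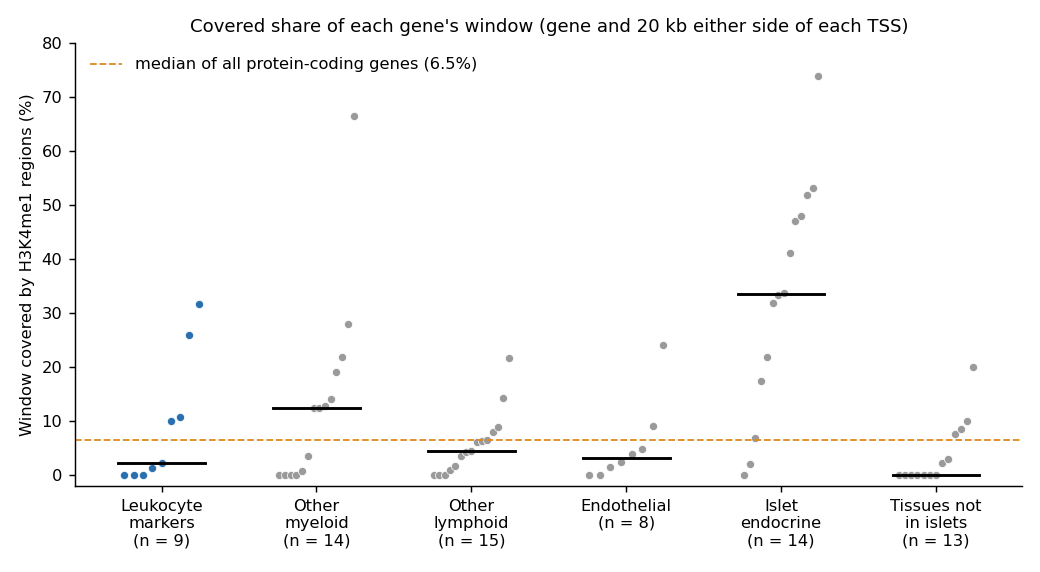
Share of each gene's window, in percent, that is covered by H3K4me1 enriched regions, with 1 point per gene, a black bar at the median of each list and a dashed line at the median of all protein-coding genes. The leukocyte markers (blue) have a median of 2.27% with Cd68 and Cd79a at 31.6% and 26.0%, and the islet endocrine genes a median of 33.5%.

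The markers were set beside 29 other leukocyte genes and 3 further lists, as a description with no test, since there is 1 library. The endocrine genes served as a reference for the labelled tissue. Like the other lists they were chosen with earlier results of these data known, so they are no independent check. All 14 of them were the closest gene of at least 1 region, 11 had a region within 2 kb of a TSS, and their windows were covered at a median of 33.5%, with Abcc8 (73.8%), the sulfonylurea receptor, and Slc2a2 (53.2%), the glucose transporter of β-cells, highest and Sst (2%) and Gcg (0%), the hormone genes of δ- and α-cells, lowest. The median covered share was 2.27% in the leukocyte markers and 6.50% in all protein-coding genes. The 14 other myeloid genes had a median of 12.5%, from 0% at Cx3cr1, Itgax, Lyz2 and Cybb to 28.0% at Cd14 and 66.5% at Fcer1g. Cd14 had 3 and Fcer1g 5 other protein-coding genes with a TSS within 20 kb, against a median of 1 in that list. The 15 other lymphoid genes had a median of 4.47%, from 0% at Cd2, Cd28 and Ms4a1 to 14.3% at Cd247 and 21.7% at Cd22. Genes of tissues that islets do not hold, such as Alb and Myh6 (both 0%), had a median of 0% over 13 genes, and their highest was Prm1, at 20%. Prm1 had 6 other protein-coding genes with a TSS within 20 kb. The 8 endothelial genes had a median of 3.17%. The order of the leukocyte markers and the genes of absent tissues depended on the measure. The markers had the higher shares of genes with at least 1 region (66.7% against 46.2%) and with a covered TSS (11.1% against 0%), and the higher median covered share of the window, which was 0% with 2 kb in place of 20 kb or with the gene body only. They had the lower shares of genes with a region within 2 kb (11.1% against 23.1%) and of genes closest to a region (33.3% against 46.2%).

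A TSS was covered at 1 of the 9 markers, at 2 of the 14 other myeloid genes and at 2 of the 15 other lymphoid genes, together 5 of 38 genes, or 13.2%, against 39.1% of all protein-coding genes. Of the 13 genes of tissues that islets do not hold, none had a covered TSS, and 3 had a region within 2 kb. Of the 8 endothelial genes, 6 had a covered TSS, including Pecam1, which encodes CD31, and Esam, an adhesion gene, and the difference from the leukocyte lists was not tested. Cdh5 and Tie1 had no region. The endocrine genes had a covered TSS at 3 of 14. In the plot of start site shares, a region within 2 kb was present at 11 of these 14 (78.6%) and at 6 of the 8 endothelial genes (75.0%), against 62.0% of all protein-coding genes.

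**Figure D3:**
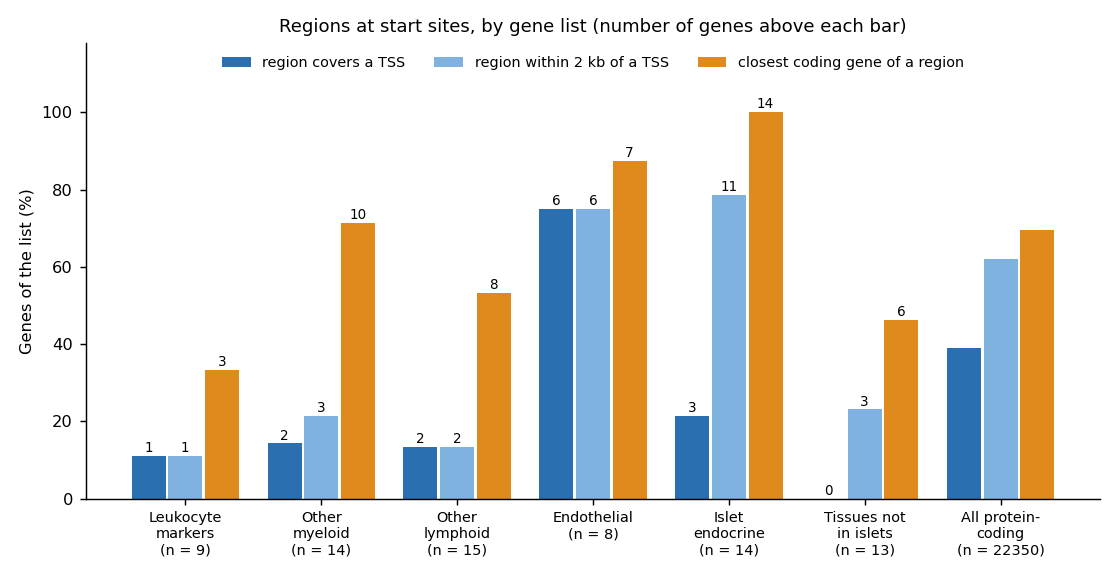
Percent of the genes of each list with a region over a TSS (dark blue), with a region within 2 kb of a TSS (light blue) and that are the closest protein-coding gene of a region (orange), with the number of genes above each bar. The leukocyte markers have 1, 1 and 3 of 9 genes, against 39.1%, 62.0% and 69.5% of all protein-coding genes.

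Around the first TSS, all protein-coding genes together had a mean of 26.1% covered within 2 kb and of 9.06% at 10 to 20 kb. The 38 leukocyte genes had 8.52% within 2 kb and 10.7% at 10 to 20 kb, and so showed no peak at the start site in the plot by distance. Endocrine genes had a mean of 25.2% within 2 kb and 25.6% at 10 to 20 kb, with a dip over the TSS itself and a highest value of 64.3% at 5800 bp downstream. Whether the regions closest to Ptprc, Spi1 and Csf1r come from leukocytes or from endocrine cells was not tested, and a region that is not listed may lie under the calling threshold.

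**Figure D4:**
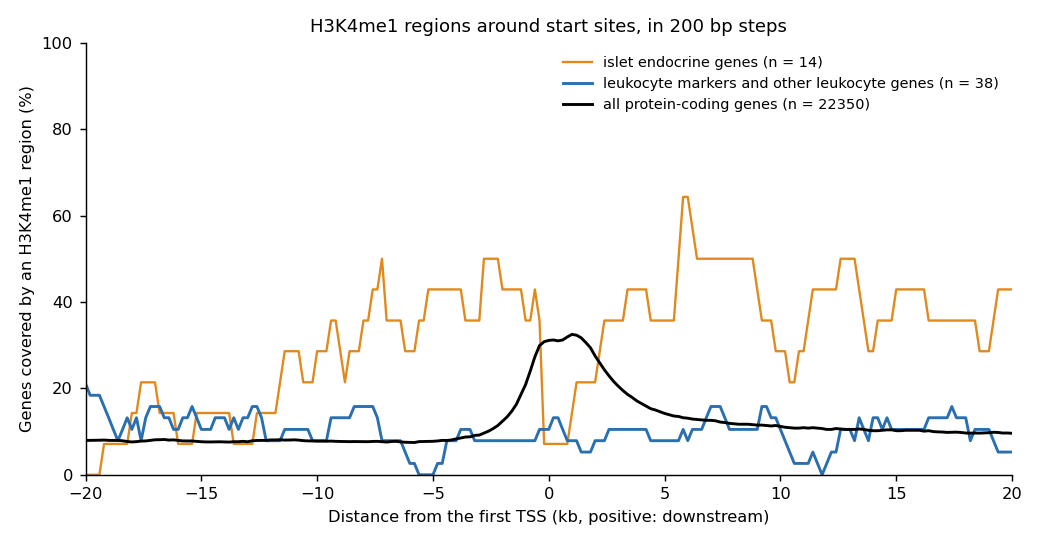
Percent of genes covered by an H3K4me1 enriched region at each distance in kb from the first TSS, in steps of 200 bp, for all protein-coding genes (black), the 38 leukocyte genes (blue) and the 14 islet endocrine genes (orange). The black line peaks at 32.5% at 1000 bp downstream, and the blue line has no peak at the start site.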

How the data were processed

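H3K4me1 ChIP-seq of 1 pooled library of cytokine treated islets was used. The authors mapped reads to mm9 with bowtie2 (Bowtie2 2.2.1 in the submitters' processing notes), identified enriched regions with ChromHMM and deposited start and end of each region without a score; the ChromHMM version is not given in the sources used here. Whether loci of low FPKM had been removed from the list is not stated, and its depth is unknown.

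Starts were moved by 1 so that positions count from 1. Genes and TSS came from GENCODE M1 on NCBIM37, the same assembly, and no region on chromosomes 1 to 19 and X ended beyond its chromosome. The closest gene was the protein-coding gene with the nearest TSS to a region's midpoint within 100 kb. A percentile is the share of protein-coding genes with a lower value, with ties shared equally between below and above. The 9 genes and the comparison lists were chosen with earlier results of these data known. All 9 were named, and from each comparison list the genes with the most and least covered windows; others were named, and the check of unique words was added, after values were seen. Groups came from the sample labels. With 1 library no test was made. Steps were tested on simulated data. Alternatives were other distances, gene body or TSS alone, coding transcripts, wider or merged regions, midpoints and other closest-gene rules. Python 3.11.15, numpy 2.4.6, scipy 1.17.1 and matplotlib 3.10.9 were used. Promoter sequence and word matches are given for Cd68 alone, and those of the other markers are not reported here.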

Additional observations from a re-analysis of the deposited data

How the results depend on the processing

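Counts and medians were taken as moved when they changed by more than 1.5 times, and the share of all protein-coding genes when it left its 95% exact binomial interval (75.8% to 76.9%), which covers counting error only. Of 65 values under alternatives for 8 summary results, 43 did not move and 22 did. The markers with a covered TSS (1), with a region within 2 kb (1), with at least 1 region (4 to 7, against 6) and with a region closest to them (2 to 4, against 3) did not move under any alternative run. A fall from 6 to 4 or from 3 to 2 only reaches the limit of 1.5 times, so by this rule it does not count as moved. The narrowest region at a marker was 400 bp wide, so keeping regions of at least 400 bp could remove none of them. The 17 regions became 7 with 2 kb in place of 20 kb, 40 with 50 kb, 7 with the gene body only and 8 without regions over a TSS of another coding gene, an alternative chosen after the data were seen. The median of 2 regions became 0 with 2 kb, 1 with 10 kb, 0 with the gene body only, 1 with 20 kb of a TSS only, 1 with regions of at least 1000 bp and 0 without regions over a TSS of another coding gene. The median covered share of 2.27% became 0% with 2 kb, 6.00% with 50 kb, 0% with the gene body only, 1.49% with 20 kb of a TSS only and 1.36% with regions of at least 1000 bp. The share of all protein-coding genes with a region, 76.4%, became 67.1% with 2 kb, 72.4% with 10 kb, 82.3% with 50 kb, 64.5% with the gene body only, 75.6% with 20 kb of a TSS only, 69.8% with regions of at least 1000 bp and 73.4% without regions over a TSS of another coding gene. Windows of another length hold other regions by construction. At single markers, 75 of 99 values did not move; Emr1 and Itgam had 0 regions under every alternative run, Cd3e had 2 with 50 kb and 0 otherwise. No paired analysis was possible because all regions come from a single library; no replicate could be left out, and no stricter threshold could be set, since the regions carry no score.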

Other observations

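Among the 29 other leukocyte genes, 4 (13.8%) had a covered TSS, against 39.1% of all protein-coding genes, and these 4 were named after their values were seen. C1qa, a complement gene of macrophages (chr4:136451832-136454718, minus strand), had a region of 4.80 kb from 136450401 to 136455200 that spanned the whole gene and covered no TSS of another protein-coding gene. It was also the closest gene of a region of 2.80 kb that ended 6.08 kb upstream. Pax5, a transcription factor gene of B cells on the same chromosome, had 2 regions over start sites, from 44723601 to 44727400 at its first TSS and from 44714401 to 44718600 at another, among 7 regions in its window. The region of 3 kb over a TSS of Lck, a T cell kinase gene, lay 16.1 to 19.1 kb downstream of the first TSS, over coding sequence. That over Fcer1g, of 16.6 kb, also covered a TSS of Apoa2, an apolipoprotein gene.

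Regions with their closest protein-coding TSS at the gene and no TSS of another gene under them were also seen away from start sites. Of the 29 other leukocyte genes, 22 (75.9%) had a region, against 76.4% of all protein-coding genes, and 7 had none (Cx3cr1, Itgax, Lyz2, Cybb, Cd2, Cd28 and Ms4a1). The median was 2 regions, and 18 genes (62.1%) were the closest gene of a region at any distance up to 100 kb, against 69.5% of all protein-coding genes. Mpeg1 and Cd247 are described because they, with Pax5, had the most regions of their own, and they do not stand for the list. Mpeg1, a perforin gene of macrophages on chromosome 19, had 6 regions in its window, of which 5 were closest to Mpeg1. A region of 3.40 kb, from 12537801 to 12541200, lay over its coding sequence and UTR. Cd247, the zeta chain gene of the T cell receptor complex, had 10 regions, 8 of them closest to Cd247 and 6 in its introns. Which cells these regions come from was not tested.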
